A study of Mus musculus with 21 samples.

Results

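MC38 tumors from mice on a methionine-restricted (MR) diet were compared with MC38 tumors from mice on control chow by RNA sequencing. The comparison took all columns of estimated counts that carry the MC38 name, 4 MR and 4 control libraries, which are 8 of the 21 libraries of the series. The other libraries came from BPD6 tumors (3 MR, 4 control) and from splenic CD8+ T cells (6 in all). The series title places the experiment in work on methionine restriction, T cell metabolism and checkpoint blockade. The labels give the tumor line and the diet for each library, and no mouse strain, sex, age, diet composition, time on diet or tumor size, and they do not say whether each library came from its own animal. The p-values therefore measure the spread between these libraries, which may be partly technical. The table lists 15507 genes, of which 14034 passed the filter on low counts and were tested.

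Methionine is an essential amino acid that cells turn into S-adenosylmethionine, the donor for methylation of DNA, RNA and histones. What is left after methyl transfer is either remade into methionine with folate-bound carbon or passed to cysteine and glutathione, and decarboxylated S-adenosylmethionine feeds polyamine synthesis. A shortage of amino acids is sensed by the kinase GCN2, which raises translation of the transcription factor ATF4 and through it genes for amino acid uptake and synthesis. MC38 is a mouse colon carcinoma line that is widely transplanted into mice to study tumor immunity.

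Levels are given as CPM, the counts of a gene scaled to a common library total, with TMM factors, for MR replicates 1 to 4 and control replicates 1 to 4 in that order. Differences are log2 fold changes of MR over control with their standard error (SE), so a positive value means higher with MR. Library totals were 16536287 to 24129588 counts for MR tumors and 16275794 to 18521831 for control tumors (exact two-sided permutation test of the totals, p = 0.229, n = 4 each). In no pair of libraries of a diet did the counts agree within sampling noise. The label calls the material tumor cells of a colon line, and epithelial markers were scarce in it. The keratin gene Krt8 had 3.72, 1.72, 18.6 and 0.235 CPM in MR tumors, against 0.0534, 3.72, 1.13 and 0.112 CPM in control tumors. Epcam, an epithelial adhesion gene, had 2.1, 1.92, 8.21 and 0.529 CPM in MR tumors, against 0.588, 2.02, 2.01 and 0.843 CPM in control tumors. The intestinal transcription factor genes Cdx1 and Cdx2 are not in the table. MR replicate 3 stood above the other 7 libraries for both Krt8 and Epcam.

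Of the 12 genes of lowest p among those higher with MR, 8 act with actin, myosin or annexins. The share of such genes among all tested genes was not counted, so no excess is claimed. S100a10 (GRCm38 chromosome 3, 93555080 to 93564643) encodes the partner of annexin A2 at the plasma membrane and had 379, 354, 373 and 416 CPM in MR tumors, against 268, 233, 234 and 251 CPM in control tumors. Capg (chromosome 6, 72544391 to 72562983), which caps actin filaments, had 178, 178, 178 and 190.2 CPM in MR tumors, against 131, 124, 128 and 138 CPM in control tumors. Gpsm3 (chromosome 17, 34589806 to 34591754), a modulator of G protein signalling in white blood cells, had 28.2, 24.2, 27.3 and 22.7 CPM in MR tumors, against 15.1, 16.1, 16.6 and 14.8 CPM in control tumors. In all 3 genes the lowest MR library lay above the highest control library. Their log2 fold changes were 0.63 ± 0.09, 0.47 ± 0.07 and 0.71 ± 0.11, and none passed the edgeR quasi-likelihood test after Benjamini-Hochberg adjustment (adjusted p = 0.243 for each). Next came Pla2g7 (0.71 ± 0.13), which encodes a secreted enzyme that inactivates platelet-activating factor, and Anxa1 (0.51 ± 0.10), encoding annexin A1. Fxyd5 (0.49 ± 0.09) encodes a regulator of the sodium pump. S100a11 (0.50 ± 0.10) encodes another annexin partner, and Phlda3 (0.42 ± 0.08) a p53 target that restrains Akt. The other 4 genes of the group act in the actin cytoskeleton: the myosin light chain genes Myl6 (0.49 ± 0.10) and Myl12b (0.40 ± 0.08), the Arp2/3 subunit gene Arpc3 (0.48 ± 0.09) and the thymosin gene Tmsb10 (0.43 ± 0.09).

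The genes of lowest p among those lower with MR included a chromatin enzyme, signalling proteins and enzymes of nucleotide and RNA metabolism. Nsd2 (GRCm38 chromosome 5, 33820725 to 33897975), a histone lysine methyltransferase that takes its methyl group from S-adenosylmethionine, had 34.5, 37, 43.6 and 44.4 CPM in MR tumors, against 59.6, 64.4, 74.4 and 69.3 CPM in control tumors. Arhgef28 (chromosome 13, 97899469 to 98206439) had 27.9, 35.4, 33.5 and 32.8 CPM in MR tumors, against 52.6, 47.4, 50.4 and 53.3 CPM in control tumors. Ptch1 (chromosome 13, 63508328 to 63573598), the hedgehog receptor and itself a hedgehog target gene, had 35.8, 29.9, 41.3 and 37.7 CPM in MR tumors, against 60.8, 52.4, 57 and 54.5 CPM in control tumors. In these 3 genes every MR library lay below every control library. The log2 fold changes were -0.75 ± 0.11 for Nsd2, -0.65 ± 0.10 for Arhgef28 and -0.64 ± 0.11 for Ptch1. Other genes of this group were Ern1 (-0.83 ± 0.15), the endoplasmic reticulum stress sensor IRE1, and Tarbp1 (-0.85 ± 0.15), a transfer RNA methyltransferase. Cad (-0.44 ± 0.08) encodes the enzyme of the first steps of pyrimidine synthesis, Pcgf3 (-0.56 ± 0.10) a polycomb ring finger protein and Kif21a (-0.71 ± 0.13) a kinesin. Alms1 (-0.63 ± 0.11) encodes a centrosome protein, Nisch (-0.46 ± 0.08) the integrin-binding protein nischarin, Sympk (-0.50 ± 0.09) a scaffold of messenger RNA 3′ end processing and Ndc1 (-0.47 ± 0.09) a nuclear pore protein. For the 12 higher and the 12 lower genes of lowest p the edgeR adjusted p was 0.243, and DESeq2, run as an alternative, called all of them. DESeq2 called 2.84% of all genes, and these genes were picked by their edgeR p in the same libraries.

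**Figure D1:**
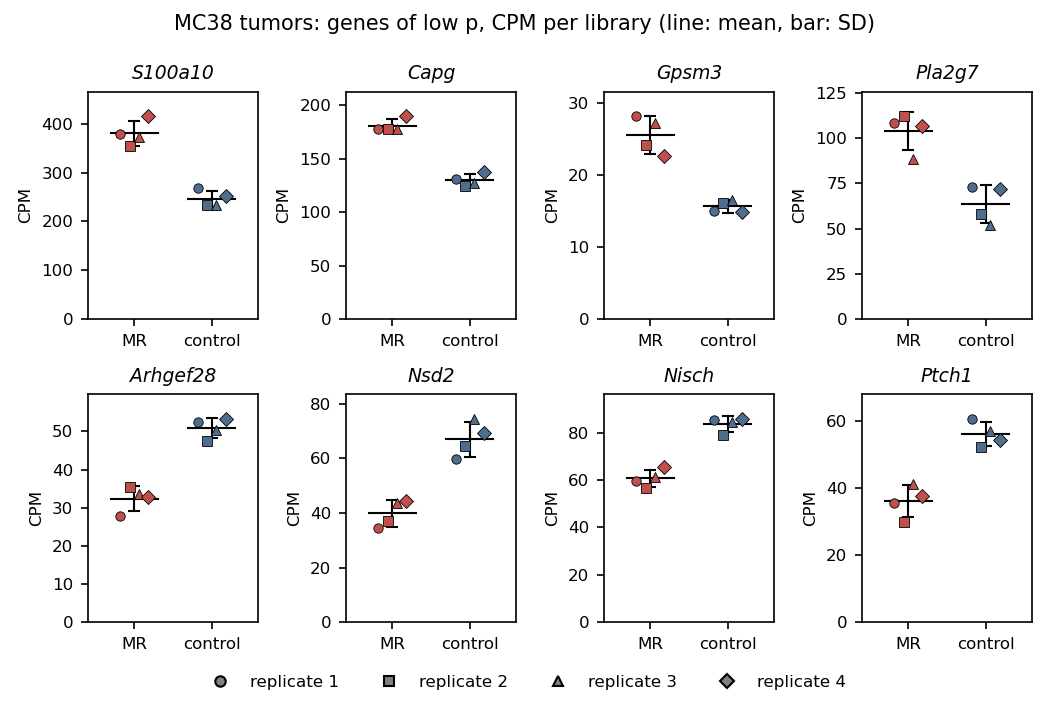
CPM of 4 genes higher and 4 genes lower with MR among those of lowest p, by library, with MR tumors (red) left of control tumors (blue). Horizontal lines are means, vertical bars SD (n = 4 each), marker shapes give the replicate number, and axes start at 0; in each panel the points of the diets do not overlap, for example 354 to 416 CPM for S100a10 with MR against 233 to 268 CPM in control tumors.

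Across the table, 0 of 14034 genes (0%) passed the edgeR quasi-likelihood test at an adjusted p under 0.05, and the lowest adjusted p was 0.243. At an unadjusted p under 0.05 there were 1981 genes (14.1%), 1025 higher (7.3%) and 956 lower (6.81%) with MR. Limma-voom also called 0 genes, with 2010 at an unadjusted p under 0.05, and DESeq2 called 398 (2.84%), 178 higher (1.27%) and 220 lower (1.57%). Groups did not overlap in 1230 genes (8.76%), 568 with MR above control (4.05%) and 662 with MR below (4.72%). Of all tested genes 53.6% had a positive log2 fold change, and the median was 0.02. The number at an unadjusted p under 0.05 was 1111 without control replicate 1.

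The largest differences among genes whose groups did not overlap were in genes of low level, where 1 library often set the size. Col9a2, a cartilage collagen gene, had 0.858, 26.8, 3.28 and 0.588 CPM in MR tumors, against 0.321, 0.425, 0.252 and 0.393 CPM in control tumors. MR replicate 2 held nearly all of this signal, and the log2 fold change of 4.48 ± 1.23 was 2.155 without it. Lyz1, a lysozyme gene of Paneth cells, had 1.62, 2.37, 10.4 and 1.06 CPM in MR tumors, against 0, 0.319, 0.252 and 0.787 CPM in control tumors, with MR replicate 3 far above the rest (3.48 ± 0.97, or 2.3 without it). Retnla, encoding a secreted protein of alternatively activated macrophages, had 5.77, 3.19, 4.05 and 1.06 CPM in MR tumors, against 0, 0.478, 0.503 and 0.337 CPM in control tumors. All MR libraries were above all control libraries, and its log2 fold change was 3.41 ± 0.75. Alb, encoding albumin, had 2.86, 1.02, 1.31 and 4.94 CPM in MR tumors, against 0, 0.744, 0.189 and 0 CPM in control tumors (3.38 ± 0.98, or 5.28 without control replicate 2), and Cacna1f, encoding a calcium channel subunit, 4.48, 2.57, 1.7 and 1.65 CPM in MR tumors, against 0.641, 1.06, 0.629 and 0.674 CPM in control tumors (1.78 ± 0.40). Both stayed near or under 5 CPM in every library. On the lower side, Cps1, the first enzyme of the urea cycle, had 0.286, 0.572, 0.602 and 0.764 CPM in MR tumors, against 2.73, 1.38, 1.76 and 1.74 CPM in control tumors (-1.77 ± 0.37). The imprinted polycomb gene Sfmbt2 stood at -1.28 ± 0.32, the ubiquitin ligase gene Cbl at -1.17 ± 0.34 and the microtubule plus-end gene Clasp2 at -1.12 ± 0.33. None passed edgeR (adjusted p 0.243 to 0.259).

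The fold change followed transcript length. Genes were split into 5 groups of equal size by the length of their transcript. The median log2 fold change was 0.22 for the shortest group (43 to 1457 bases), then 0.10, 0.02 and -0.06, and -0.16 for the longest (4561 bases and more). In the shortest group 80.5% of the genes were higher with MR and in the longest 24.1%. Genes at an unadjusted p under 0.05 that were higher with MR had a median transcript of 1458 bases, those lower with MR of 4707 bases, and all genes of 2684 bases. Across 13895 genes, which are not independent replicates, Spearman's correlation of fold change with length was -0.43 and Pearson's, on log2 length, was -0.30.

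The trend differed between libraries of the same diet. The slope of a library's log2 CPM, relative to the mean of the 8 libraries, on log2 length was -0.185, -0.0356, -0.0338 and 0.0303 in MR tumors, against 0.0884, 0.0187, 0.0257 and 0.092 in control tumors. MR replicate 1 had the steepest slope of the 8, and MR replicate 4 lay among the control libraries. The diets' mean slopes were -0.0562 ± 0.0915 for MR and 0.0562 ± 0.0394 for control (SD, n = 4 each). The difference of -0.112 did not pass an exact two-sided permutation test (p = 0.0857, 0.257 adjusted over 3 library measures, smallest possible p 0.0286), and without MR replicate 1 it was -0.0692. In BPD6 tumors the corresponding difference was -0.0224 and the 5 medians ran between 0.02 and -0.06. There 55.7% of the genes of the shortest group and 34.7% of the longest were higher with MR. The BPD6 slopes were -0.0446, -0.00941 and 0.0157 with MR, against -0.11, 0.0577, 0.0353 and 0.0555 in control tumors. The first control library lay below all MR libraries and the other control libraries above them. The small BPD6 difference thus rests on 1 library, and it was not computed without that library. A correction that took out each library's own trend with length left 55.2% of all tested genes above 0, 801 genes higher and 634 lower at an unadjusted p under 0.05, and 0 past edgeR. RNA integrity and fragment sizes of the libraries are not in the sources used here, and their part in the trend was not tested. Below, the corrected value stands beside the uncorrected one wherever they differ by over 1.5 times, and beside some others.

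Among the genes of lowest p described above, the correction moved several by over 1.5 times. Of those higher with MR, S100a10 stood at 0.41 after correction, S100a11 at 0.26, Myl6 at 0.26, Arpc3 at 0.30 and Tmsb10 at 0.22. Of those lower with MR, Ptch1 stood at -0.40, Alms1 at -0.35, Pcgf3 at -0.32 and Cad at -0.24. Each kept its direction. Capg (0.36), Gpsm3 (0.58), Pla2g7 (0.66), Nsd2 (-0.53), Arhgef28 (-0.50) and Nisch (-0.45) moved less.

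**Figure D2:**
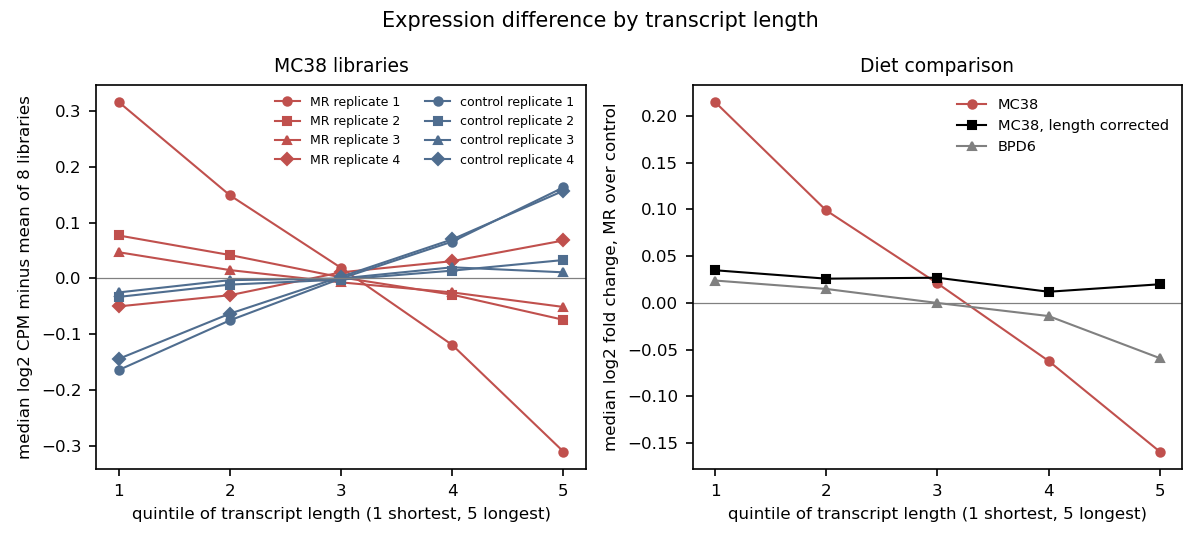
Left, median over genes of log2 CPM minus the mean of the 8 libraries in 5 groups of transcript length, 1 line per library (MR red, control blue); right, median log2 fold change of MR over control in the same groups for MC38 (red), MC38 after length correction (black) and BPD6 (grey). MR replicate 1 runs from 0.32 in the shortest to -0.31 in the longest group. The corrected MC38 medians stay between 0.01 and 0.04, which follows from the correction, since it takes out each library's trend with length.

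Several gene families of short transcripts were higher as a whole, and the length correction took out much of that difference. The correction is fitted on all tested genes with a length, these families included. It therefore cannot tell a trend with length from a difference of the families themselves. Of 78 cytosolic ribosomal protein genes 78 were higher with MR (median log2 fold change 0.31, or 0.11 length corrected with 69 higher). Their reads can be shared with processed pseudogenes. The summed level was 116400, 70720, 81520 and 65110 CPM in MR tumors, against 62180, 72650, 81490 and 56310 CPM in control tumors. MR replicate 1 stood alone at the top, MR replicate 3 was level with the highest control library, MR replicates 2 and 4 lay within the control range, and without MR replicate 1 the median was 0.12. Rps29 had 409, 237, 230.0 and 175 CPM in MR tumors, against 149.9, 162, 151 and 138 CPM in control tumors (0.81 ± 0.23, or 0.49 length corrected), the lowest MR library above the highest control library, and stood at 0.51 without MR replicate 1. The groups of Rpl39 did not overlap either (0.44 ± 0.12, or 0.19).

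Nuclear genes of oxidative phosphorylation were higher in 72 of 76 members, 43 of them at an unadjusted p under 0.05, where all genes gave 7.3%, and 18 with groups that did not overlap, where all genes gave 4.05%. In the shortest of the 5 groups of transcript length, 507 of 2781 genes were higher at that p. The median of the oxidative phosphorylation genes was 0.34, 0.14 after length correction and 0.20 without MR replicate 1. Uqcrh, a hinge subunit of complex III, had 168, 133, 122 and 107 CPM in MR tumors, against 78, 99.9, 82.2 and 91.6 CPM in control tumors (0.59 ± 0.14, or 0.33 length corrected). Ndufa11, of complex I, had 106, 85.2, 75.9 and 82.5 CPM in MR tumors, against 60.6, 63.1, 64.1 and 63.4 CPM in control tumors (0.48 ± 0.11, or 0.22). In both genes all MR libraries were above all control libraries. Mitochondrial ribosomal protein genes were higher in 74 of 78 (median 0.19, or 0.05 length corrected), among them Mrpl33 (0.41 ± 0.11, or 0.14). Proteasome genes were higher in 30 of 34 (median 0.26, or 0.10), including the core particle gene Psma2 (0.35 ± 0.09, or 0.38) and the lid gene Psmd8 (0.31 ± 0.08, or 0.20). Without MR replicate 1 the mitochondrial ribosome and proteasome medians were 0.06 and 0.09.

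Histone and DNA methyltransferase genes, whose transcripts are long (median 5940 bases), were mostly lower. Of 30 measured, 28 were lower with MR (median -0.18), 7 at an unadjusted p under 0.05 (all genes 6.81%). In the longest of the 5 groups of transcript length, 501 of 2779 genes were lower at that p. After length correction 19 of the 30 were lower and their median was -0.05. The uncorrected median stood at -0.35 when MR replicate 4 was left out. Nsd3, a relative of Nsd2, had 47.6, 55.6, 56.5 and 70.8 CPM in MR tumors, against 86.7, 69.5, 78.5 and 87.6 CPM in control tumors (-0.48 ± 0.13, or -0.41 length corrected), and its groups overlapped, since MR replicate 4 lay above control replicate 2. The de novo DNA methyltransferase gene Dnmt3b had 19.4, 14.9, 17.1 and 20.4 CPM in MR tumors, against 24.1, 26, 24.3 and 24.9 CPM in control tumors (-0.47 ± 0.12, or -0.38), without overlap.

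**Figure D3:**
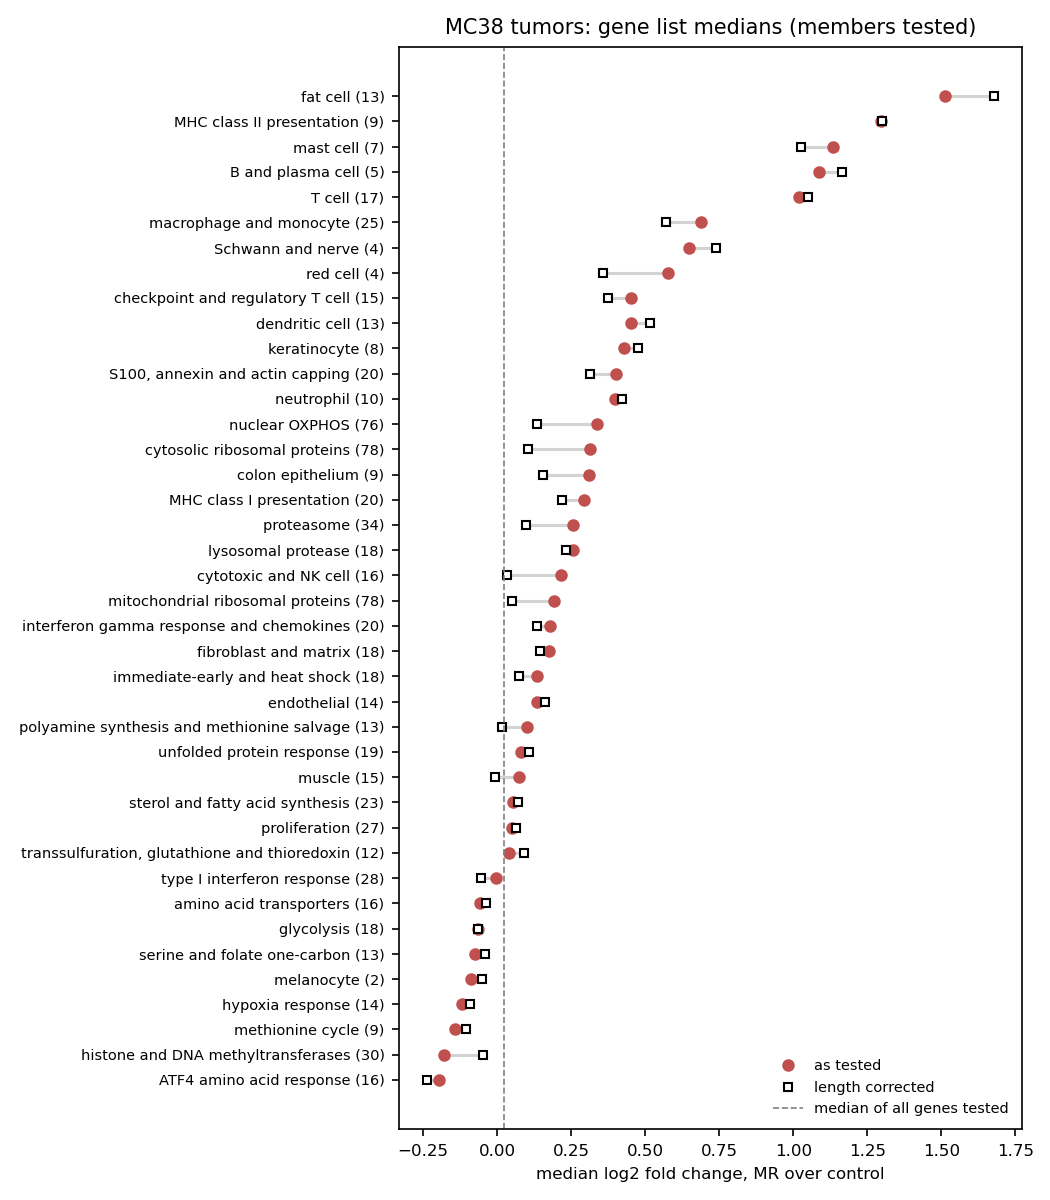
Median log2 fold change of MR over control for each of the 40 gene lists, with the number of members tested in brackets, as tested (red circles) and after length correction (open squares); the dashed line is the median of all genes tested. The ribosomal protein, OXPHOS, proteasome and methyltransferase medians move towards the dashed line with the correction, while those of fat cell (1.51 and 1.68), MHC class II (1.296 and 1.301) and T cell genes (1.02 and 1.05) do not.

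Genes of the ATF4 amino acid response were mostly lower with MR: 13 of 16 tested members, with a median log2 fold change of -0.20 (-0.23 length corrected). Sesn2 (GRCm38 chromosome 4, 132492032 to 132510501), a leucine sensor that restrains the growth kinase complex mTORC1, had 39.7, 40.6, 41.2 and 48.7 CPM in MR tumors, against 76, 56.8, 63.3 and 60.9 CPM in control tumors. Chac1 (chromosome 2, 119351229 to 119354381), which degrades glutathione, had 20.2, 19.4, 18.4 and 11.9 CPM in MR tumors, against 32.6, 22.7, 34.5 and 23.7 CPM in control tumors. In both genes every MR library was below every control library, and the log2 fold changes were -0.60 ± 0.11 and -0.70 ± 0.20 (edgeR adjusted p = 0.243 and 0.256). Atf4 itself had 632, 301, 466 and 258 CPM in MR tumors, against 379, 408, 518 and 336 CPM in control tumors. It was widely spread within the MR tumors, and its difference of 0.01 ± 0.27 (-0.08 length corrected) differed in sign between settings, at -0.26 without MR replicate 1 and 0.18 without MR replicate 4. Asns, encoding asparagine synthetase, stood at -0.06 ± 0.19 (-0.12 length corrected), and was above 0 without control replicate 3 (0.05), MR replicate 2 (0.04) or MR replicate 4 (0.02). The pseudokinase gene Trib3 stood at -0.44 ± 0.30, with -0.71 without MR replicate 1 and -0.26 without MR replicate 2. The cystine transporter gene Slc7a11 stood at -0.64 ± 0.33, with -0.36 length corrected and -0.38 without MR replicate 2, and both genes had overlapping groups. Apart from Sesn2 and Chac1, no member reached an unadjusted p under 0.05 (all genes 6.81% lower). The list median depended on single libraries: it was -0.39 without MR replicate 1, -0.13 without MR replicate 4 and -0.10 without control replicate 3.

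Promoters of this list are shown because ATF4 binds a composite element with the letters TGATGNAAN. That element was searched on both strands in the 250 bases before the start of transcription (RefSeq, GRCm38.p6). It was found in 7 of the 16 members with a promoter entry and in 3.44% of 32851 promoters, and a match is a description of the letters only. A member counted if any of its promoter entries matched, while the percentage is over single entries, so the shares are not fully alike. Chac1 (chr2:119350992-119351241, plus strand) holds it on the opposite strand, Asns (chr6:7693210-7693459, minus strand) near the start of transcription, and Slc7a11 (chr3:50443614-50443863, minus strand) on both strands; capitals mark the matches, 5′ to 3′ along the gene.
Chac1: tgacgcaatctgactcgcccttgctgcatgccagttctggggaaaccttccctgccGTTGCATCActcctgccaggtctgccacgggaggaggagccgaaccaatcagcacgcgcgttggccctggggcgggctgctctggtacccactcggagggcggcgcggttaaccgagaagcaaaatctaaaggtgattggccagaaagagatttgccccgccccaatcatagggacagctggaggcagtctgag
Asns: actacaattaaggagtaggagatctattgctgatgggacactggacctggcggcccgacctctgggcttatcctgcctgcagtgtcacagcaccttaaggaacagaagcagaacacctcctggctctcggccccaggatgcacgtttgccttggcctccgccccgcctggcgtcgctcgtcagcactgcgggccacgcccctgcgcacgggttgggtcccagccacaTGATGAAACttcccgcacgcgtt
Slc7a11: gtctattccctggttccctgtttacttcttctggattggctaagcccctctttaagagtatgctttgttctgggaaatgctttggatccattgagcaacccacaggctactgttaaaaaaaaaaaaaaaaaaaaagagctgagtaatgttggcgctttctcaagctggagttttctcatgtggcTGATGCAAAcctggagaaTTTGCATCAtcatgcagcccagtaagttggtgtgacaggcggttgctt
Of these genes with the element, Chac1 was lower in every MR library, while Asns and Slc7a11 overlapped between diets. Of the members with it that are not shown, Atf3, Vldlr and Nupr1 overlapped too, and Fgf21 was under the filter. Sesn2, also lower in every MR library, had no match.

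Amino acid transporter genes were lower in 9 of 16 members (median -0.06, -0.04 length corrected, or -0.15 to 0.003 when any 1 library was left out), 4 of them at an unadjusted p under 0.05 (all genes 6.81%). Slc7a1, the main carrier of cationic amino acids, had 299, 243, 363 and 334 CPM in MR tumors, against 503, 376, 488 and 399 CPM in control tumors (-0.51 ± 0.15, or -0.30 length corrected). Slc7a5, the light chain of the LAT1 carrier that brings in methionine and other large neutral amino acids, had 698, 527, 589.9 and 559 CPM in MR tumors, against 807, 709.9, 954 and 696 CPM in control tumors (-0.42 ± 0.13, or -0.35). The diets did not overlap for Slc7a1, and for Slc7a5 MR replicate 1 lay just above control replicate 4. The glycine transporter gene Slc6a9 stood at -0.35 ± 0.11 without overlap.

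**Figure D4:**
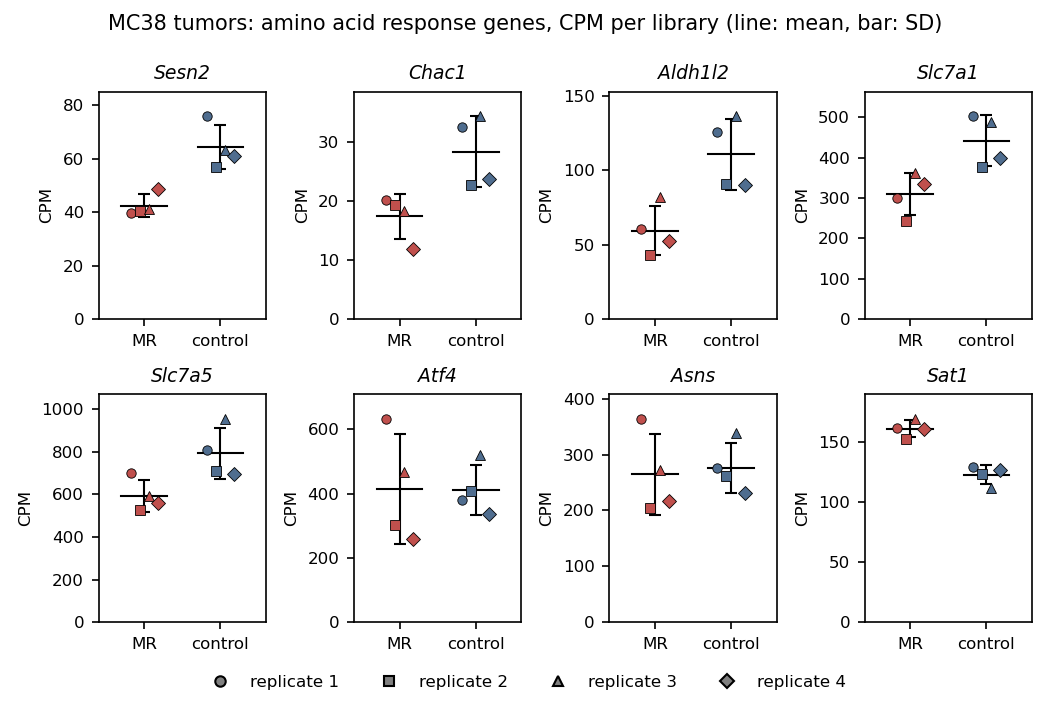
CPM by library of 8 genes of amino acid response, transport, folate metabolism and polyamine breakdown, with MR tumors (red) left of control tumors (blue); lines are means, bars SD (n = 4 each), shapes give the replicate number, and axes start at 0. Sesn2, Chac1, Aldh1l2 and Slc7a1 are lower and Sat1 higher in all MR libraries, Slc7a5 overlaps in 1 library, and Atf4 and Asns overlap widely.

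Genes of the methionine cycle list, which takes in the hydrolase-like genes Ahcyl1 and Ahcyl2, were lower in 7 of 9 members (median -0.14, or -0.10 length corrected). Mtrr, which reactivates methionine synthase, had 28.9, 31.9, 40.5 and 42.9 CPM in MR tumors, against 53.1, 43.6, 48 and 45.7 CPM in control tumors (-0.40 ± 0.14). Mtr, methionine synthase itself, stood at -0.38 ± 0.16, at -0.14 after length correction and at -0.25 without MR replicate 1. The hydrolase-like genes Ahcyl1 (-0.25 ± 0.09) and Ahcyl2 (-0.30 ± 0.09, or -0.16 length corrected) were, like Mtrr, lower in all MR libraries than in any control library. The genes for the enzymes on either side of methyl transfer differed little: Mat2a, which makes S-adenosylmethionine, had 236, 184, 254 and 217 CPM in MR tumors, against 229, 263, 239.5 and 249.9 CPM in control tumors (-0.14 ± 0.11, or -0.08 length corrected and -0.06 without MR replicate 2), and Ahcy, which clears its product, stood at -0.10 ± 0.09, with -0.15 without MR replicate 1 and -0.05 without MR replicate 3. Their groups overlapped. Serine and folate genes were lower in 8 of 13 members (median -0.07, -0.04 length corrected, or -0.17 to 0.02 when any 1 library was left out). Aldh1l2, a mitochondrial folate enzyme, had 60.4, 43.1, 82 and 52.4 CPM in MR tumors, against 126, 90.9, 137 and 89.9 CPM in control tumors (-0.90 ± 0.21, or -0.71 length corrected), without overlap, and its neighbour in the pathway Mthfd1l stood at -0.30 ± 0.12.

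Polyamine and methionine salvage genes were higher in 7 of 13 members (median 0.10, or 0.02 length corrected). That median was -0.002 without MR replicate 1 and 0.03 without control replicate 4. Sat1, which starts polyamine breakdown, had 162, 152, 169 and 160.5 CPM in MR tumors, against 129, 124, 112 and 127 CPM in control tumors (0.39 ± 0.08, or 0.24), every MR library above every control library. Oaz2, an inhibitor of polyamine synthesis, also had groups apart (0.35 ± 0.11). In the glutathione and thioredoxin list 6 of 12 were higher (median 0.04, or 0.09 length corrected and -0.003 to 0.10 when any 1 library was left out), with the glutathione peroxidase genes Gpx1 (0.50 ± 0.18, or 0.28 length corrected) and Gpx4 (0.36 ± 0.15, or 0.15) and the peroxiredoxin gene Prdx1 (0.29 ± 0.11) at the lowest p. Without MR replicate 1 the first of these stood at 0.33 and Gpx4 at 0.21.

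Genes of MHC class I presentation were higher in 18 of 20 members, 12 at an unadjusted p under 0.05 (all genes 7.3%) and 8 with groups apart (all genes 4.05%). The median was 0.29, 0.22 after length correction, and 0.25 to 0.34 when any 1 library was left out. B2m, the light chain of class I molecules, had 2746, 2633, 2486 and 2723 CPM in MR tumors, against 2247, 2029, 2082 and 2195 CPM in control tumors (0.31 ± 0.08, or 0.12 length corrected). The immunoproteasome genes Psmb9 (197, 200, 156 and 156 CPM in MR tumors, against 141, 122, 116 and 139 CPM in control tumors) and Psmb8 (0.36 ± 0.11) were also higher in all MR libraries, Psmb9 by 0.45 ± 0.12. H2-Q and H2-T genes of the list are close copies that can share reads. Interferon gamma response genes were higher in 16 of 20 (median 0.18), among them Irf1 (0.27 ± 0.09) and the GTPase gene Ifi47 (0.36 ± 0.11), both apart. Cd274, encoding PD-L1, had 40.9, 52.1, 62.6 and 65.7 CPM in MR tumors, against 73.1, 45.8, 48.5 and 69.6 CPM in control tumors (-0.10 ± 0.20, or -0.03 length corrected), with overlapping groups, and was above 0 without MR replicate 1 (0.02) or control replicate 1 (0.02). Type I interferon response genes split evenly, 14 of 28 higher (median -0.004, or -0.05 length corrected and -0.12 to 0.07 when any 1 library was left out). The RNA sensor gene Ddx58 was lower without overlap (-0.32 ± 0.09), and Ifi44 stood at -0.45 ± 0.14.

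MHC class II genes were higher in 9 of 9 tested members (median 1.3, 1.3 length corrected). H2-Eb2 and H2-Ob were under the filter. H2-Eb1 (GRCm38 chromosome 17, 34305867 to 34316674), a beta chain gene, had 40.3, 107, 212 and 73 CPM in MR tumors, against 22.3, 28.4, 27.4 and 73.5 CPM in control tumors. The invariant chain gene Cd74 had 149, 306, 669 and 223 CPM in MR tumors, against 98.6, 110.0, 104 and 236 CPM in control tumors. MR replicate 3 was the highest and control replicate 4 lay within the MR range, so the diets overlapped. The log2 fold changes were 1.51 ± 0.53 and 1.3 ± 0.46, and without MR replicate 3 they were 0.95 and 0.72. Ciita, the master activator of these genes, stood at 1.19 ± 0.74 and at 0.18 without MR replicate 3 and 1.86 without control replicate 4. The list median was 0.72 without MR replicate 3. H2-DMb2, whose reads can be shared with its copy H2-DMb1, reached 26.8 CPM in MR replicate 3 and 1.33 to 2.35 CPM in the other MR libraries, against 0.107 to 1.26 CPM in control tumors. Its log2 fold change of 3.2 ± 1.1 was 1.03 without that library.

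Promoters of the class II genes are shown because the 6 letters GATTGG, the inverted CCAAT box, belong to the conserved element through which these genes are turned on together. The letters stood, on either strand, in the 250 bases before the start in 8 of the 8 members that have a promoter entry, against 14.6% of 32851 promoters (RefSeq, GRCm38.p6). Here too a member counted if any of its entries matched, while the percentage is over single entries. H2-Eb1 lies at chr17:34305617-34305866, plus strand and H2-Aa, an alpha chain gene chosen after its values were seen, at chr17:34287824-34288073, minus strand; capitals mark the match, CCAATC being the same letters on the opposite strand.
H2-Eb1: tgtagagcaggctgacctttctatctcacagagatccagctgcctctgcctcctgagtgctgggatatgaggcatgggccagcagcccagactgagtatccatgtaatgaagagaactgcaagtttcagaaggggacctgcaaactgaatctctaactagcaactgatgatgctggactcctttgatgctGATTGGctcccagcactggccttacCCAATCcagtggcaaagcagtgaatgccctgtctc
H2-Aa: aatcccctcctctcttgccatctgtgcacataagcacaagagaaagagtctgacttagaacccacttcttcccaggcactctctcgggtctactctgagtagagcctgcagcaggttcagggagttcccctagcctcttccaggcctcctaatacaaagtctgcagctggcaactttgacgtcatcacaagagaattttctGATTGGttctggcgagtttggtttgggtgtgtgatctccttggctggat
The summed level of the list was 346, 734, 1490 and 549 CPM in MR tumors, against 239, 251, 243 and 575 CPM in control tumors.

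Macrophage and monocyte genes were higher in 24 of 25 members, 12 at an unadjusted p under 0.05 (all genes 7.3%) and 2 with groups apart (all genes 4.05%). The median was 0.69, or 0.57 length corrected. Trem2, a lipid receptor of macrophages, had 18, 29, 25.4 and 16.5 CPM in MR tumors, against 6.62, 11.7, 13.3 and 12 CPM in control tumors (1.03 ± 0.25). Its signalling adaptor Tyrobp had 31.9, 66.3, 53.5 and 56.1 CPM in MR tumors, against 23.7, 28.3, 23.4 and 37.9 CPM in control tumors (0.87 ± 0.23), and the Fc receptor gene Fcgr3 stood at 1.02 ± 0.29. Trem2 was higher in all MR libraries, whereas MR replicate 1 fell within the control range for Tyrobp and Fcgr3. Of the general macrophage markers, Csf1r stood at 0.76 ± 0.38, above the list median, or at 0.49 without MR replicate 2. Adgre1, encoding F4/80, stood at 0.06 ± 0.34, with -0.10 length corrected, and leaving out 1 library gave -0.25 (MR replicate 2) to 0.30 (control replicate 4). Genes of lysosomal proteins were higher in 16 of 18 (median 0.26), with Ctss, the cathepsin that trims the invariant chain, at 0.94 ± 0.24, Ctsh at 0.76 ± 0.25 and the inhibitor gene Cst3 at 0.40 ± 0.12, or 0.22 length corrected. In bulk RNA, more cells of a type and more RNA per cell cannot be told apart, nor can fewer and less.

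T cell genes were higher in 15 of 17 members, at low levels (median 1.02, or 0.38 without MR replicate 3), with 4 higher (all genes 7.3%) and 1 lower (all genes 6.81%) at an unadjusted p under 0.05. Cd3d, a chain of the T cell receptor complex, had 2.77, 6.7, 8.98 and 3.64 CPM in MR tumors, against 1.5, 1.59, 2.2 and 2.7 CPM in control tumors (1.47 ± 0.40), the lowest MR library just above the highest control library. Cd8a had 3.15, 10.9, 17.2 and 6 CPM in MR tumors, against 4.27, 2.98, 4.84 and 6.24 CPM in control tumors (1.02 ± 0.47), MR replicate 3 highest and MR replicates 1 and 4 within the control range, and stood at 0.54 without MR replicate 3. The effector genes Gzmb and Prf1 overlapped between diets. Gzmb, encoding granzyme B, stood at -0.26 ± 0.36, with -0.05 without MR replicate 1 and -0.63 without MR replicate 4. Prf1, encoding perforin, stood at -0.70 ± 0.44, with -0.45 and -1.26 in the same settings. Of 16 cytotoxic and NK cell genes 11 were higher and 0 were at an unadjusted p under 0.05 (all genes 14.1%). Their median was 0.22, or 0.03 length corrected, and 0.006 without either MR replicate 2 or control replicate 3. The regulatory T cell gene Foxp3 (0.50 ± 0.19, or 0.30 without MR replicate 1) and the checkpoint genes Lag3 (0.45 ± 0.18) and Pdcd1 (0.58 ± 0.33) overlapped between diets. B cell genes were high in 1 library. Their summed level was 341 CPM in MR replicate 3 and 52.2 to 61.03 CPM in the other MR tumors, against 57.4 to 69.3 CPM in control tumors. Cd79b, a B cell receptor chain, had 42.1 CPM there and 1.62 to 4.23 CPM in the other MR tumors, against 0.88 to 3.15 CPM in control tumors. The B cell median of 1.09 was 0.18 without MR replicate 3.

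Markers of tissue beside the tumor were uneven between libraries of 1 diet. Fat cell genes were higher in 13 of 13 tested members (median 1.51), 10 at an unadjusted p under 0.05 (all genes 7.3%), and 0 had groups apart (all genes 4.05%). The median was 0.82 without MR replicate 2 and 2.33 without control replicate 3. The adipokine gene Adipoq had 9.44, 25.7, 18.1 and 0.235 CPM in MR tumors, against 0.16, 2.28, 2.52 and 0.337 CPM in control tumors (3.34 ± 1.13), and the fatty acid carrier gene Fabp4 had 103, 130.0, 144 and 16.3 CPM in MR tumors, against 8.12, 36.5, 30.1 and 14 CPM in control tumors (2.15 ± 0.65). MR replicates 1 to 3 were high and MR replicate 4 lay with the control tumors. The lipid droplet gene Cidec (3.12 ± 0.94) and the resistin gene Retn (4.1 ± 1.24) were likewise above every control tumor in MR replicates 1 to 3 but not in MR replicate 4. Muscle genes were high in 1 library of each diet, with summed levels of 33, 3796, 25.2 and 222 CPM in MR tumors, against 20, 20.4, 3333 and 102 CPM in control tumors. The MR replicate 2 and control replicate 3 tumors thus carried most of the muscle signal, and Des, encoding desmin, stood at 1.19 ± 1.26 with all libraries, at -1.26 without MR replicate 2 and at 3.05 without control replicate 3. The part of fat, muscle, B cell and epithelial RNA in the differences above was not tested. With MR replicate 2 and control replicate 3 both left out, a setting chosen after seeing the data, 1304 genes were at an unadjusted p under 0.05 and 0 passed edgeR. In that setting the list medians were -0.05 for the ATF4 response, -0.22 for the methionine cycle, 0.43 for macrophage, 0.29 for mitochondrial ribosomal, 0.20 for polyamine and -0.17 for cytotoxic genes. Those of serine and folate (0.04), amino acid transporter (0.02) and hypoxia genes (0.04) were then above 0.

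**Figure D5:**
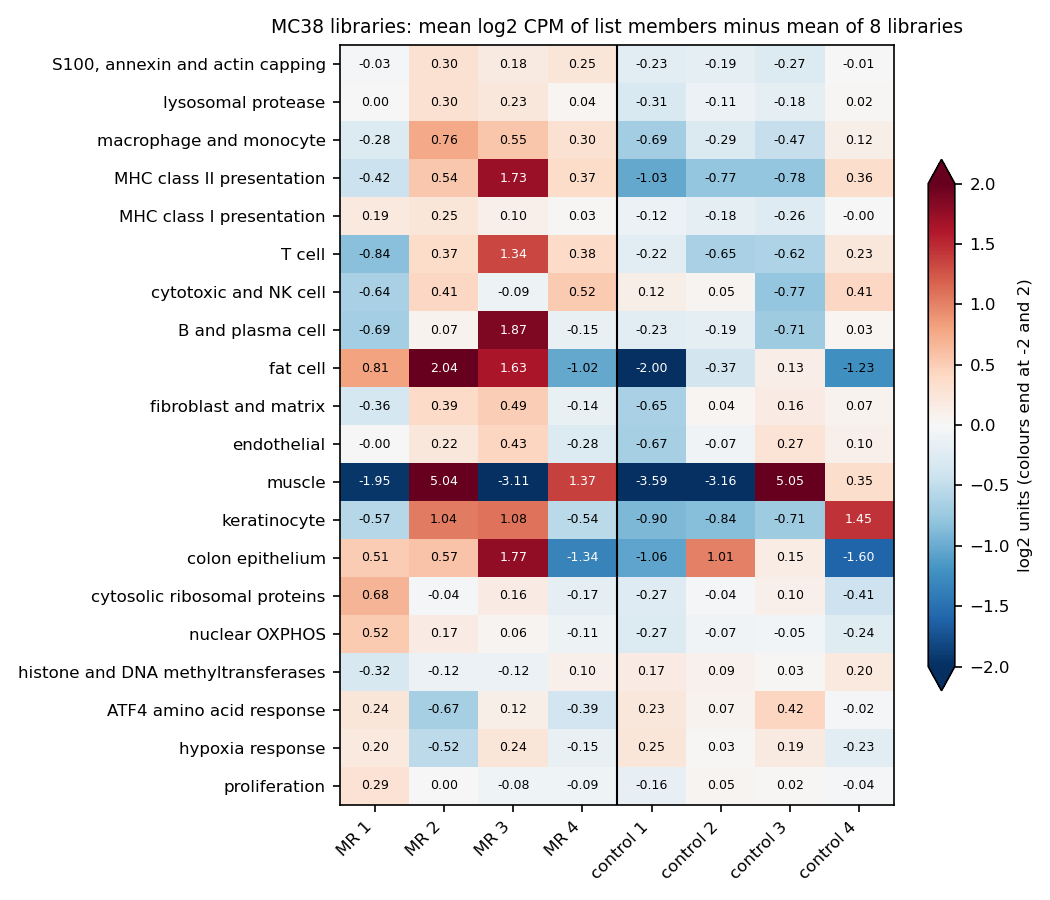
Mean log2 CPM of the tested members of 20 lists in each MC38 library, minus the mean of the 8 libraries, with MR libraries left of control libraries; red is above and blue below the mean, and colours end at -2 and 2. MR replicate 3 is highest for MHC class II (1.73), T cell (1.34) and B cell genes (1.87), MR replicate 2 (5.04) and control replicate 3 (5.05) for muscle genes, and the S100 and annexin row has MR replicate 1 (-0.03) just below control replicate 4 (-0.01).

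The S100, annexin and actin capping genes differed in much the same way whichever library was left out. This list was chosen with earlier results of these data known. Its members S100a10, Capg and Anxa1 are also among the 12 higher genes of lowest p. Its counts, median and summed level are therefore partly a matter of choice, also with 1 library left out. Of 20 members 16 were higher, 12 at an unadjusted p under 0.05 (all genes 7.3%) and 8 with groups apart (all genes 4.05%), while 1 was lower at that p (all genes 6.81%). The median was 0.40, 0.31 after length correction, and 0.39 to 0.46 when any 1 library was left out. Their summed level was 5270, 5355, 5095 and 5602 CPM in MR tumors, against 4120, 3925, 3675 and 4464 CPM in control tumors, the lowest MR tumor above the highest control tumor. Anxa1 stood at 0.43 after length correction.

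The response was compared with that of BPD6 melanoma tumors by the interaction of diet and tumor model over 14257 genes listed in both tables. The columns taken as BPD6, from the name of their table, carry another name, GEMM6, that is in no sample title, and number the MR libraries 1, 2 and 4 where the titles number them 1 to 3. None passed edgeR (0%), with 742 at an unadjusted p under 0.05 (5.2%), limma-voom called 0 and DESeq2 10. BPD6 alone had 0 of 13978 genes past edgeR and 258 at an unadjusted p under 0.05 (1.85%). Ptch1 stood at -0.64 in MC38 (-0.40 length corrected) and 0.22 ± 0.15 in BPD6, a difference of -0.86 ± 0.19 (edgeR adjusted p = 0.849). S100a10 stood at 0.63 (0.41 length corrected) and 0.10 ± 0.17 (difference 0.53 ± 0.19), and Sesn2 at -0.60 and -0.17 ± 0.17 (difference -0.43 ± 0.22). Cd274 stood at -0.10 (-0.03 length corrected) and 0.91 ± 0.30 (difference -1.01 ± 0.38), and Ifi44 at -0.45 and 1.03 ± 0.47 (difference -1.46 ± 0.49). None of these differences passed, so the tumor models were not shown to respond differently. As lists, the type I interferon median was -0.004 in MC38 (-0.05 length corrected) and 0.66 in BPD6, and the hypoxia response median -0.12 and 0.48. The OXPHOS median was 0.34 (0.14 length corrected) and -0.07, while MHC class I genes stood at 0.29 and 0.33. The BPD6 values and the differences given here are without length correction. The differences of the list medians were not tested.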

How the data were processed

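Estimated counts per gene were deposited by the authors without normalization, as multiples of 0.5. How reads were aligned, counted and assigned to strands is not stated in the labels or headers. The submitters' processing notes name GRCm38 (mm10) as the build. Messenger RNA was selected by its poly-A tail and copied from random primers, per the labels' protocols. Columns were matched to samples by name, and BPD6 columns to their diet only. A further 15 columns of per-library values in the tumor tables were not used. Counts were rounded to whole numbers (ties to the even neighbour), filtered with filterByExpr, scaled by TMM and put through glmQLFTest, the quasi-likelihood test in edgeR 4.0.16 (R 4.3.3), with Benjamini-Hochberg adjustment over all tested genes. DESeq2 1.42.0 and limma 3.58.1 (voom), other normalization and filters, a block for replicate number, a length correction and leaving out each library were the alternatives. CPM came from the same counts. Transcript lengths and gene positions came from GENCODE M21 on GRCm38, and 98.9% of the listed genes had a length. The scripts were tested on simulated data. Named genes were the 12 higher and 12 lower of lowest p, the 8 higher and 8 lower of largest change at unadjusted p under 0.05 with groups apart, the 3 of lowest p in each list, and a fixed set, with a mean of at least 1 CPM for the first 2 sets. The members and the 40 lists were chosen with earlier results of these data known.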

Additional observations from a re-analysis of the deposited data

Results flagged for a closer look

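In 20 of 300 groups of 4 libraries, 1 library lay apart from the other 3 by more than the limit of Dixon's test for 4 values. Chance alone puts about 5% of such groups past it. No explanation is given for these values.

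Among MR tumors, replicate 1 was low for Sympk (94.4 CPM) and high for Rpl39 (469 CPM), Mrpl33 (80.3 CPM), Ifi44 (210 CPM) and the red cell score (0.869). Replicate 2 was high for Col9a2 (26.8 CPM) and Des (268 CPM). Replicate 3 was high for Lyz1 (10.4 CPM), the class II gene H2-DMb2 (26.8 CPM) and the B cell gene Cd79b (42.1 CPM). Replicate 4 was high for Capg (190 CPM, the other MR tumors at 178) and Sesn2 (48.7 CPM).

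Among control tumors, replicate 1 was high for Pcgf3 (53.3 CPM) and low for the fibroblast and matrix score (-0.652). Replicate 2 was high for Cacna1f (1.06 CPM), and replicate 3 was high for Des (109 CPM) and low for Psmb8 (214 CPM). Replicate 4 was high for H2-Eb1 (73.5 CPM), Cd74 (236 CPM) and the keratinocyte score (1.45). A score is the mean log2 CPM of a list's members minus its mean over the 8 libraries.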

How the results depend on the processing

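With edgeR 0 genes passed in the MC38 comparison under every normalization, filter, block, length correction and left-out library tried. DESeq2 called 398 genes there (2.84% of all tested) and 10 in the interaction with BPD6, while limma-voom called 0 in both. DESeq2 called 57 of the 107 genes named. Many of these were chosen for their low p in the same libraries, so their share is not independent support. The cause of the difference between tools was not tested. The number of genes at an unadjusted p under 0.05 was 1435 with length correction, 1990 with DESeq2 size factors, 2089 without a filter and 1945 at a mean of at least 1 CPM. When 1 library was left out it ran between 1111 and 2786, and it was 1304 without MR replicate 2 and control replicate 3, a setting chosen after seeing the data. Fewer libraries enter these fits.

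Replicate numbers did not pair the MC38 libraries: deviations of same-numbered libraries correlated at -0.011, -0.275, -0.111 and 0.378. With the replicate block 0 genes passed edgeR (lowest adjusted p 0.408) and 1633 were at an unadjusted p under 0.05, or 1195 with length correction as well.

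Direction was kept in all but 24 of 1712 gene settings, which fell on 6 genes, and the cause was not tested. Many of the named genes were chosen for a low p or groups apart in these same libraries, which favours a kept direction. The count therefore says little about genes in general. Atf4 stood at -0.062 with limma-voom, -0.083 with length correction, -0.063 with the replicate block and -0.143 with block and length correction. For Adgre1 these values were -0.017, -0.099, -0.02 and -0.2, and Mki67 stood at 0.125 with length correction and 0.118 with block and length correction. With 1 library left out, Atf4 ran between -0.262 and 0.184, Adgre1 between -0.252 and 0.3, Asns between -0.255 and 0.047, Cd274 between -0.206 and 0.024 and Des between -1.26 and 3.05. Of 680 list settings, 6 moved a median by more than the spread between libraries. That spread is the pooled SD of the list's score, which is wide for some lists (0.694 for T cell and 3.838 for muscle genes). The T cell median of 0.38 without MR replicate 3, from 1.02, therefore did not count. Nor did the muscle median of -3.33 without MR replicate 2, from 0.07. The count thus says little about how steady the medians were. Depth limits the genes under about 1 CPM, which hold few counts in each library.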

Other observations

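Unfolded protein response genes were higher in 15 of 19 members (median 0.08), among them the chaperone gene Dnajb9 (0.45 ± 0.13) and the transcription factor gene Xbp1 (0.25 ± 0.10). Immediate-early and heat shock genes were higher in 14 of 18 (median 0.13, or 0.07 length corrected), with Jun at 0.42 ± 0.11. Proliferation genes were higher in 18 of 27 (median 0.05), with the cyclin gene Ccnb2 at 0.35 ± 0.10 and Mki67 at -0.16 ± 0.14, or 0.12 length corrected. Glycolysis genes were lower in 12 of 18 (median -0.07) and hypoxia genes in 10 of 14 (median -0.12), with Vegfa at -0.43 ± 0.27, or -0.24 without control replicate 3 and -0.25 without MR replicate 2, and neither list had a member at an unadjusted p under 0.05 (all genes 14.1%). Sterol and fatty acid synthesis genes split 13 higher to 10 lower (median 0.05), with the desaturase gene Scd1 at 0.72 ± 0.29. Leaving out any 1 library gave medians of 0.06 to 0.16 for the unfolded protein response, 0.08 to 0.28 for immediate-early, -0.04 to 0.09 for proliferation, -0.15 to 0.02 for glycolysis, -0.20 to -0.007 for hypoxia and -0.03 to 0.12 for sterol and fatty acid genes.

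Among cell type lists, dendritic cell genes were higher in 11 of 13 (median 0.45), neutrophil genes in 8 of 10 (0.40), checkpoint and regulatory T cell genes in 12 of 15 (0.45), endothelial genes in 9 of 14 (0.13) and fibroblast and matrix genes in 13 of 18 (0.18). The tight junction gene Cldn5 was higher in all MR libraries than in any control library (1.0 ± 0.35). Lists with few or scarce members were mast cell (4 of 7 higher, median 1.13, 0.25 without MR replicate 4), keratinocyte (6 of 8, 0.43), red cell (4 of 4, 0.58), Schwann and nerve (4 of 4, 0.65), colon epithelium (7 of 9, 0.31), melanocyte (0 of 2, -0.09) and muscle genes (10 of 15, 0.07). After length correction the medians were 0.36 for red cell, 0.15 for colon epithelium, -0.05 for melanocyte and -0.006 for muscle genes. The muscle median was -3.33 without MR replicate 2 and 4.36 without control replicate 3. Leaving out any 1 library gave 0.33 to 0.69 for dendritic cell, 0.28 to 0.61 for neutrophil, 0.05 to 0.24 for endothelial, -0.08 to 0.26 for fibroblast, 0.21 to 0.96 for keratinocyte, 0.28 to 1.04 for red cell, 0.43 to 0.84 for Schwann, 0.14 to 0.65 for colon epithelium and -0.18 to 0.008 for melanocyte genes.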
